A study of Mus musculus with 17 samples.

Results

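The p53 family and its regulators and targets were followed in RNA-seq data of cultured mouse stem cells as a set of 10 genes: the family genes Trp53, Trp63 and Trp73, the regulators Mdm2 and Mdm4, and the targets Ccng1, Bbc3, Bax, Sesn1 and Sesn2. They are 10 of the 23891 gene symbols in the files, and they hold 22 of 32661 RefSeq transcripts. Members were chosen for their known place in the p53 pathway, with earlier results of these data known, and were found by symbol. Each is given by the transcript with the highest mean level over all 17 samples. The level is the FPKM, the number of sequenced fragments scaled to the length of the transcript and the size of the library.

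The study asked how spermatogonial stem cells turn into pluripotent cells in culture without added factors. SSCs (4 lines, spermatogonial stem and progenitor cells of mouse testis) were compared with MASCs (6 lines, multipotent adult spermatogonial-derived stem cells that arose from SSCs in long-term culture) and ESCs (2 embryonic stem cell lines). Induced pluripotent (iPS) cells (2 lines), haematopoietic stem and progenitor cells (HSCs, 2 cultures) and mouse embryonic fibroblasts (MEFs, 1 sample) stood beside them. SSC lines 1 and 2, MASC lines 1 and 2 and ESC line 1 were of strain Oct4-GFP, SSC line 3 and both HSC cultures of C57Bl/6J, MASC lines 5 and 6 of Gt(ROSA26)Sor-lacZ, and all other samples of 129mix. SSCs, MASCs, ESCs and iPS cells grew on MEF feeder cells, the SSCs with GDNF, bFGF and EGF and the others in ESC medium with LIF. Only the SSC protocol names a step that removes feeder cells before collection, by their attachment to gelatin. MASC and iPS lines were started from colonies picked by hand for their ESC-like shape. The iPS cells came from E13.5 MEFs of a tetO-4F2A x H3.3B-HA cross, in which doxycycline, given at 2 µg/ml, drives a cassette of 4 reprogramming factors. The MEF sample was from E13.5 embryos of H3.3B-HA mice. HSCs were lineage-negative bone marrow cells expanded with Kit ligand on human endothelial feeder cells (E4ORF1-HUVECs) and freed again of lineage-positive cells before collection. The labels name no mutation of a p53 pathway gene and no agent that damages DNA.

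Depth was read from the coverage at 1 FPKM, which ran from 1.26 to 3.23 reads per base, and 13532 to 16272 transcripts reached 1 FPKM in a sample. All 6 pluripotency markers (Pou5f1, Nanog, Sox2, Zfp42, Esrrb and Tdgf1) were at 1 FPKM or more in every MASC, ESC and iPS line, all 7 spermatogonial markers in every SSC line, and all 6 blood markers in both HSC cultures. The MEF sample also had all 6 blood markers at this level, with a sum of 311 FPKM against 2331 and 1863 FPKM in HSCs. The summed pluripotency markers were at 114 FPKM in SSC line 1. They were at 7.39 to 18.8 FPKM in the other SSC lines and at 1379 FPKM or more in MASCs. The summed FPKM of 8 fibroblast markers ran from 32.1 to 835 in SSCs, 21.0 to 927 in MASCs, 57.7 to 355 in ESCs, 4.32 to 37.4 in iPS cells and 7.00 to 363 in HSCs, against 5586 in the MEF sample. Fibroblast marker RNA was over 300 FPKM in 5 libraries (SSC lines 1 and 3, MASC line 1, ESC line 1 and HSC culture 2), and calls of the 10 genes were recomputed without them. In such bulk samples, fewer cells of a type and less RNA per cell cannot be told apart.

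The transcription factor p53, the product of Trp53, halts the cell cycle or starts apoptosis after DNA damage and other stress. Mdm2 attaches ubiquitin to p53 and is itself a p53 target, Mdm4 holds p53 back without this activity, and p63 and p73 share the DNA-binding domain of p53 and are made from alternative start sites with or without the activating N-terminus. The targets act in growth arrest (cyclin G1 from Ccng1), in apoptosis at the mitochondrion (PUMA from Bbc3, and Bax) and in amino acid sensing and the oxidative stress response (the sestrins). Loss of p53 has long been known to ease both the conversion of germline stem cells and the making of iPS cells. Much of the control of p53 acts on the protein, which was not measured here.

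In MASCs, 5 of the 10 genes were higher than in SSCs (Trp53, Trp73, Bbc3, Bax and Sesn2), 2 were lower (Sesn1 and Mdm4), and 3 were not called (Ccng1, Mdm2 and Trp63). The test was limma on log2(FPKM + 1) with Benjamini-Hochberg adjustment over all transcripts, and a gene was called at an adjusted p under 0.05. Over all 32661 transcripts, 30.9% were called in this comparison, 11.4% as higher and 19.5% as lower. Among the 13646 genes with a mean of at least 1 FPKM, taken by their top transcript, 47.4% were called, 19.5% as higher and 27.9% as lower. The median difference of the 10 genes was 0.96 on the log2 scale, against -0.00480 over all transcripts. It was -0.157 over the 18757 transcripts with at least 1 FPKM in at least 2 of the SSC, MASC and ESC lines. The same 7 genes were those whose MASC lines did not overlap with the SSC lines. Such separation was seen upwards in 9.92% and downwards in 15.4% of all transcripts. The sign of the difference of these 7 genes was the same within the Oct4-GFP and within the 129mix lines.

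**Figure D1:**
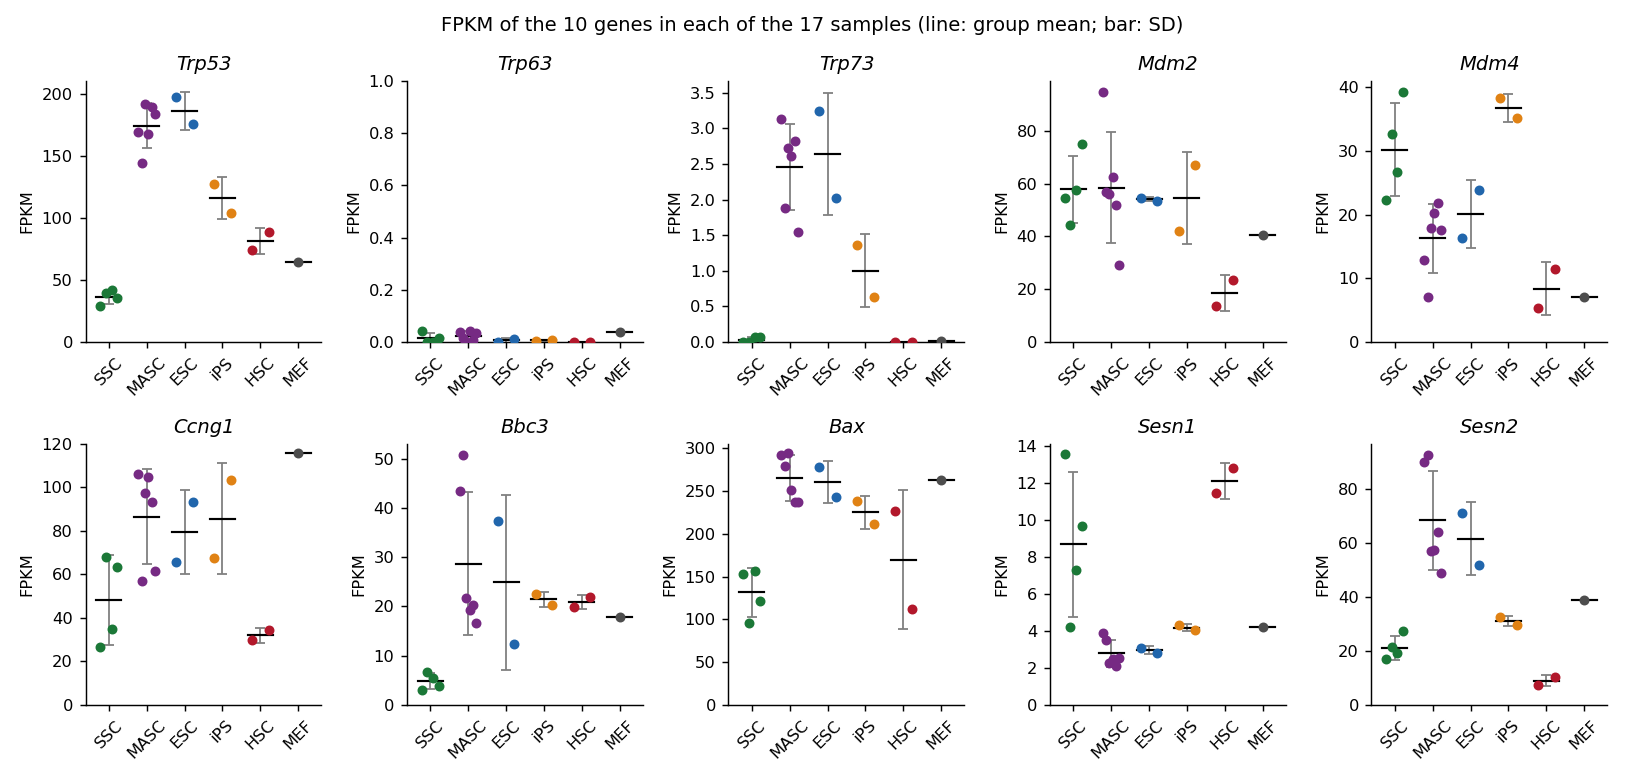
FPKM of the 10 genes (vertical axes, linear and starting at 0) in the 4 SSC, 6 MASC, 2 ESC, 2 iPS, 2 HSC and 1 MEF samples. Points are samples, lines are group means and bars are SDs. The MASC lines sit above all SSC lines for Trp53, Trp73, Bbc3, Bax and Sesn2, and below them for Sesn1 and Mdm4.

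Trp53 was low in SSCs, at 28.9, 39.1, 42.1 and 35.4 FPKM in lines 1 to 4. In MASCs it ran from 144 to 192 FPKM with a median of 176, and in ESCs it was 197 and 175 FPKM. Every MASC and ESC line was over 3 times the highest SSC line, and the MASC mean of 174 ± 18.0 FPKM (SD, n = 6) was 4.79 times the SSC mean of 36.4 ± 5.71 FPKM (SD, n = 4). The difference was 2.24 on the log2 scale (SE 0.11, limma adjusted p = 1.1e-06). It was 2.18 within strain Oct4-GFP (2 lines of each cell type) and 2.31 within 129mix (2 MASC lines and 1 SSC line). The somatic samples lay between both levels, with 74.1 and 89.0 FPKM in HSCs and 64.4 FPKM in the MEF sample, and so did the iPS lines with 128 and 104 FPKM. In the order of cell types, ESC and MASC ranges overlapped, and each of the further steps down to iPS, HSC, MEF and SSC was free of overlap. SSCs thus had the lowest Trp53 level of the 6 cell types. The iPS and HSC groups held 2 samples each and the MEF group 1. The share of all transcripts with such steps was not counted. The 3 genes whose pattern over the 17 samples was most like that of Trp53, among 20119 transcripts compared, were Prdx6 (a peroxiredoxin, Pearson's r 0.98), Def8 (0.97) and Manba (a lysosomal mannosidase, 0.97). Such r values rest on samples that share cell types, so they describe the same step between cell types.

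Trp63 was at the floor of the data. Its 8 transcripts, from an outer start site at chr16:25683851 and an inner one at chr16:25802002 (mm9), summed to at most 0.147 and 0.0703 FPKM in any sample. No difference could be read at such levels.

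Trp73 was near 0 in SSCs and present in the pluripotent lines. In SSC lines 1 to 4 the listed values were 8.8e-05, 8.9e-06, 0.0641 and 0.0675 FPKM, whereas MASCs ran from 1.55 to 3.14 FPKM with a median of 2.66. ESCs stood at 3.24 and 2.03 FPKM, iPS cells at 1.36 and 0.637 FPKM, and HSCs and MEFs at most at 0.00880 FPKM. Against SSCs the difference was 1.72 in MASCs (SE 0.15, limma adjusted p = 2.2e-05), 1.79 in ESCs (adjusted p = 0.00022) and 0.93 in iPS cells (adjusted p = 0.0053). These differences are of log2(FPKM + 1), which understates the change of a low gene, and with a pseudocount of 0.1 the MASC difference was 4.27. Without iPS line 1, the iPS difference of 0.67 was not called (adjusted p = 0.10).

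The Trp73 signal came from 1 of its start sites. The single transcript of the outer start site, chr4:153514317 on the minus strand of mm9, codes for p73 with the activating N-terminus (the TA form) and reached at most 0.189 FPKM in any sample. The 2 transcripts of the inner start site, chr4:153471282, code for the form without it (ΔN), a known inhibitor of p53 and p73 activity, and summed to 1.61 to 3.14 FPKM in MASCs and 0.0411 to 0.0675 FPKM in SSCs. Read upstream of both sites, the genome is shown because the lines differ in the use of only 1 of them. The capitals mark CG dinucleotides in the 150 bases before the outer (chr4:153514318-153514467) and the inner site (chr4:153471283-153471432), read 5′ to 3′ on the minus strand of mm9.
Trp73 outer site: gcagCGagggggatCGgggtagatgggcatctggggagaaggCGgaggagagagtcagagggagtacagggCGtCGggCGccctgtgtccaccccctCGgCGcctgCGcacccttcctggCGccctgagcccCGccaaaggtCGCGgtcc
Trp73 inner site: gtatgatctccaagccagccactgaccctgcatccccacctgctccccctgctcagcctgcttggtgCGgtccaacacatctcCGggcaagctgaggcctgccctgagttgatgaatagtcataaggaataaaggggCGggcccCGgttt
The outer stretch holds 13 CG dinucleotides and 71.3% G or C, the inner one 4 and 59.3%. DNA methylation was not measured in these files.

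Trp53 was read as 2 transcripts that differ in the last exon. The longer transcript, of lower level, uses an acceptor 96 bases upstream (chr11:69404756-69404851, plus strand) and reads into a stop codon there, which gives a p53 with another C-terminus. The bases from this acceptor to the stop codon, in capitals, show where the reading frame ends.
Trp53 longer transcript (chr11:69404756-69404810): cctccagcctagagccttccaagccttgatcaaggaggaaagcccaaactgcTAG
It stood at 7.82, 6.28, 5.82 and 4.46 FPKM in SSC lines 1 to 4, and in MASCs from 28.9 to 55.3 FPKM with a median of 37.1. It rose with the shorter one, by 2.53 on the log2 scale (SE 0.19, limma adjusted p = 1.2e-05). Its share of the Trp53 FPKM ran from 11.2% to 21.3% in SSCs and from 13.1% to 27.8% in MASCs, so the shares overlapped. In HSCs it made up 6.58% and 9.10%, and in the MEF sample 6.83%, below all lines of the other cell types. Cufflinks divided reads between overlapping transcripts by their likelihood, so such shares are estimates.

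Mdm2, the main ubiquitin ligase of p53, was not called in MASCs, ESCs or iPS cells. Its main transcript was at 54.4, 44.3, 57.6 and 74.9 FPKM in SSC lines 1 to 4 and between 29.4 and 94.7 FPKM in MASCs, with a median of 56.4. The SSC range lay within the MASC range, and the difference was -0.04 on the log2 scale (95% interval -0.65 to 0.58, limma adjusted p = 1). Its sign was not stable: the difference was 0.31 when all Mdm2 transcripts were summed and 0.21 with a strain block, neither of them called. The level was 54.6 and 53.5 FPKM in ESCs, 42.1 and 67.0 FPKM in iPS cells and 40.4 FPKM in the MEF sample. HSCs were apart from these, at 13.6 and 23.4 FPKM, and lower than SSCs by 1.61 on the log2 scale (SE 0.38, limma adjusted p = 0.0055). Without HSC culture 1 the HSC difference was -1.25 and not called (adjusted p = 0.077).

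A second Mdm2 transcript was higher in MASCs. It starts at the same base but lacks exon 3 of 12, an exon of 85 bases at chr10:117146756-117146840 (minus strand, mm9) that holds the first start codon. A form without it is read from a later start codon and lacks the N-terminal region that binds p53. The coding part of this exon is shown because its presence separates both transcripts, with the start codon in capitals.
Mdm2 exon (chr10:117146756-117146836): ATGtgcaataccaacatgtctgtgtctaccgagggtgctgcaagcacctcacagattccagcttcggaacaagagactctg
The shorter transcript was at 9.16, 9.48, 7.995 and 14.7 FPKM in SSC lines 1 to 4 and between 17.5 and 39.4 FPKM in MASCs, with a median of 28.4. All MASC lines lay above all SSC lines, a separation seen upwards in 9.92% of all transcripts. The Cufflinks 95% bounds of the nearest lines, 15.8 above SSC line 4 and 16.3 below MASC line 6, did not meet. Such bounds belong to single libraries and do not measure the spread between lines. The rise was 1.38 on the log2 scale (SE 0.24, limma adjusted p = 0.0017), and it was called under all 18 alternatives that could be run for it. The share of this form in the Mdm2 FPKM was 12.2% to 17.6% in SSCs and 29.4% to 37.4% in MASCs. It was 19.5% and 29.1% in ESCs, 16.3% and 20.1% in iPS cells, 43.2% and 19.2% in HSCs and 24.3% in the MEF sample. In share, all MASC, ESC and HSC samples, iPS line 2 and the MEF sample were above all SSC lines. The HSC cultures were far apart. In FPKM, both HSC cultures (10.4 and 5.55) and the MEF sample (12.9) were below SSC line 4. So were ESC line 1 (13.2) and iPS line 1 (8.18). The shorter transcript was not called against SSCs in ESCs (0.71, limma adjusted p = 0.16). Neither was it in iPS cells (0.21, adjusted p = 0.81) or HSCs (-0.36, adjusted p = 0.53). These shares, too, are Cufflinks estimates.

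**Figure D2:**
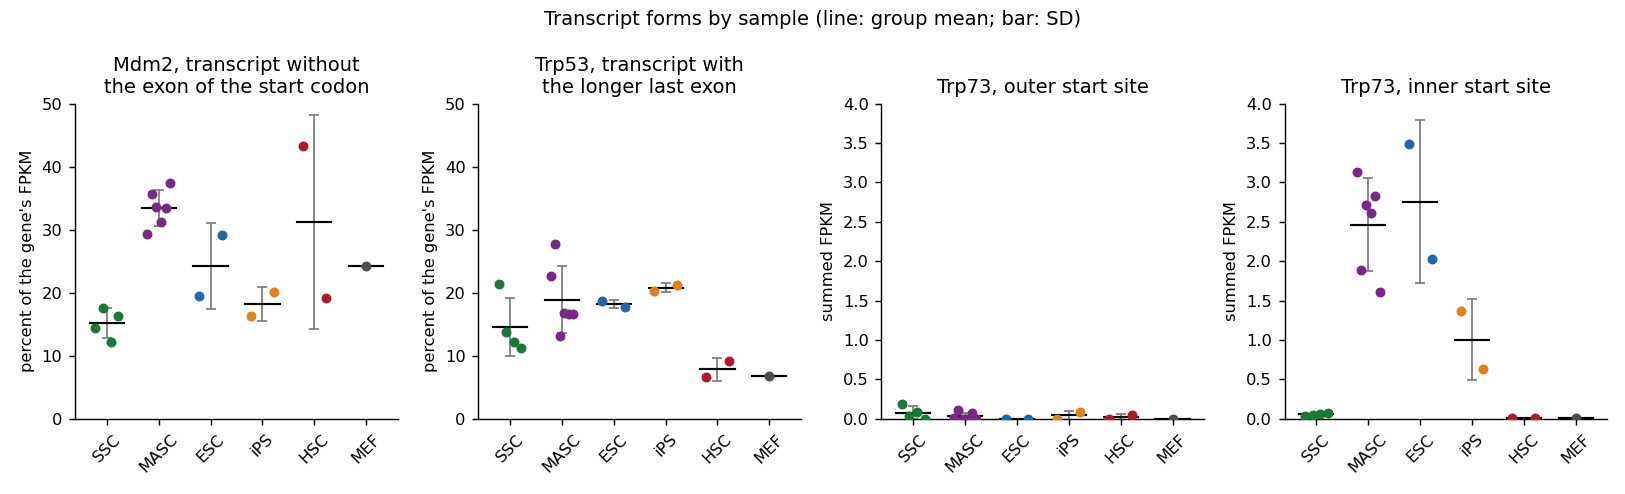
Share of the shorter Mdm2 transcript and of the longer Trp53 transcript in the FPKM of their gene (percent, panels on the left), and summed FPKM from the outer and inner Trp73 start site (panels on the right). Points are the 17 samples by cell type, lines are means and bars are SDs. The Mdm2 share is 12.2% to 17.6% in SSCs and 29.4% to 37.4% in MASCs, and only the inner Trp73 site passes 1 FPKM.

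Mdm4, the second inhibitor, was lower in MASCs. It was at 22.4, 32.6, 26.6 and 39.2 FPKM in SSC lines 1 to 4, and between 7.11 and 21.8 FPKM in MASCs with a median of 17.7. The groups were separate by a narrow gap, and the difference was -0.90 on the log2 scale (SE 0.30, limma adjusted p = 0.044). This call was the weakest of the 7. It held in 10 of 19 alternatives and was lost, among others, with quantile normalization (adjusted p = 0.054), with the 5 fibroblast-rich libraries left out (-1.12, adjusted p = 0.13) and without SSC line 2, 3 or 4 or MASC line 1, 3 or 6 (adjusted p from 0.061 to 0.12), while the direction held in all 19 alternatives. ESCs, at 16.4 and 23.8 FPKM, were not called against SSCs, and iPS cells had 38.3 and 35.2 FPKM. HSCs, at 5.42 and 11.4 FPKM, were lower than SSCs by 1.78 (SE 0.40, limma adjusted p = 0.0044), a call lost without HSC culture 1 (-1.30, adjusted p = 0.072). The MEF sample had 7.09 FPKM.

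Ccng1, a strong p53 target that codes for cyclin G1, did not pass the test. It was at 26.4 and 34.7 FPKM in SSC lines 1 and 3 and at 68.1 and 63.4 FPKM in lines 2 and 4, so SSCs fell into a low and a high pair. The low pair had fibroblast marker sums of 350 and 835 FPKM and the high pair 32.1 and 90.1 FPKM. Ccng1 was at 116 FPKM in the MEF sample, above every SSC line. The summed FPKM of 4 differentiating germ cell markers (Kit, Stra8, Sycp3 and Prm1) was also higher in the low pair. It was 84.1 and 139 FPKM there and 32.6 and 50.6 FPKM in the high pair. The part of either cell type in the Ccng1 split was not tested. MASCs ran from 56.9 to 106 FPKM with a median of 95.4 and overlapped with the high SSC pair. The difference of 0.90 on the log2 scale (95% interval 0.21 to 1.59, limma adjusted p = 0.052) was just outside the threshold, and it passed in 8 of 19 alternatives (adjusted p from 0.024 to 0.58). Without the 5 fibroblast-rich libraries, which left SSC lines 2 and 4, the difference was 0.28 (adjusted p = 0.58). The settings in which it passed included the fit over all 17 samples (adjusted p = 0.035), the filter on low values (adjusted p = 0.024) and the fits without SSC line 2 or 4 or MASC line 2 or 6 (differences from 0.99 to 1.10). In ESCs Ccng1 stood at 65.8 and 93.2 FPKM, in iPS cells at 67.6 and 104 FPKM and in HSCs at 29.6 and 34.4 FPKM. The 3 genes with the most similar pattern over the 17 samples were Twf1 (an actin-binding twinfilin, Pearson's r 0.92), Zmat3 (a zinc finger gene and itself a p53 target, 0.91) and Crk (an adaptor protein, 0.90).

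Only Ccng1 held a p53 response element without a spacer near its start under the search used here. The element consists of 2 half-sites of 10 bases, and it was searched on both strands within 2000 bases of each start site, with at most 1 mismatch outside the C and G core and a spacer of at most 13 bases. Of 22367 protein-coding gene windows of the same length in the mm9 annotation, 11.4% held such an element and 0.608% held one without a spacer. Ccng1 held 2 without a spacer, 1 of them upstream of its start (-185 bases) and 1 in the first intron (340 bases downstream). Both are shown on the minus strand of mm9 with the half-sites in capitals, since they are the only such elements among the 10 genes.
Ccng1 upstream (chr11:40568959-40568988): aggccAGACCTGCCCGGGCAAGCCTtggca
Ccng1 intron (chr11:40568433-40568462): ccggaACGCAAGCCCGGGCTAGTCTgcgcc
Bax held 2 elements with a spacer, and the windows of the other 8 genes held none by this rule. An element with more mismatches, or with a mismatch in the core, was not counted. A gene without a match may therefore still hold an element near its start. A match of letters is no measure of binding, and binding was not measured in these files.

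Both members that act at the mitochondrion rose in MASCs. Bbc3, which codes for the BH3-only protein PUMA, was at 3.06, 6.67, 5.44 and 3.84 FPKM in SSC lines 1 to 4. MASC lines 1 to 6 had 43.4, 50.7, 21.7, 19.3, 20.3 and 16.6 FPKM, so the lowest of them was over 2 times the highest SSC line and lines 1 and 2 were apart from the rest. The MASC mean was 6.03 times the SSC mean, and the difference was 2.28 on the log2 scale (SE 0.41, limma adjusted p = 0.0021). SSCs had the lowest Bbc3 of all cell types, with 37.4 and 12.3 FPKM in ESCs, 22.5 and 20.4 FPKM in iPS cells, 19.9 and 21.9 FPKM in HSCs and 17.9 FPKM in the MEF sample. The share of all transcripts lowest in SSCs was not counted.

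Bax, the effector that opens the outer mitochondrial membrane, was the most abundant member, at 153, 95.5, 156 and 121 FPKM in SSC lines 1 to 4. It ran from 237 to 295 FPKM in MASCs with a median of 265, above every SSC line, and was 2.02 times as high on average. The difference was 1.03 on the log2 scale (SE 0.14, limma adjusted p = 0.00041). Quantile normalization, which moved the median difference of the 18757 expressed transcripts up by 0.18, lowered it to 0.61 (adjusted p = 0.0025). Bax was at 278 and 243 FPKM in ESCs, 239 and 212 FPKM in iPS cells and 263 FPKM in the MEF sample, while the HSC cultures were far apart at 227 and 112 FPKM.

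The sestrins went in opposite directions. Sesn2, the leucine sensor among them, was at 16.9, 21.5, 19.1 and 27.1 FPKM in SSC lines 1 to 4 and between 48.7 and 92.3 FPKM in MASCs, with a median of 60.7. It was higher in all MASC lines, by 1.62 on the log2 scale (SE 0.21, limma adjusted p = 0.00031). ESCs stood at 70.9 and 51.9 FPKM, the MEF sample at 38.9 FPKM and iPS cells at 32.3 and 29.7 FPKM, and HSCs were lowest with 7.41 and 10.4 FPKM.

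Sesn1 fell in MASCs. In SSC lines 1 to 4 it was at 13.55, 4.21, 7.27 and 9.66 FPKM, and in MASCs it ran from 2.09 to 3.86 FPKM with a median of 2.51. The gap between SSC line 2 and the highest MASC line was small, and the difference was -1.28 on the log2 scale (SE 0.26, limma adjusted p = 0.0042). With the 5 fibroblast-rich libraries left out it was -1.08 and just missed the threshold (adjusted p = 0.051). The transcript of the upstream start site of Sesn1 (chr10:41530380) was at 2.98 to 7.09 FPKM in SSCs and 1.93 to 3.39 FPKM in MASCs, and its difference of -0.56 was not called (limma adjusted p = 0.068), although it passed with a filter on low values (adjusted p = 0.046) and without SSC line 3 (0.047). HSCs, at 11.4 and 12.8 FPKM, overlapped with the SSC lines, and ESCs had 3.10 and 2.81 FPKM, iPS cells 4.32 and 4.03 FPKM and the MEF sample 4.18 FPKM.

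Sesn3, the remaining sestrin gene and a FoxO target, was at 18.9, 19.8, 15.4 and 21.5 FPKM in SSC lines 1 to 4, and the largest MASC value was 6.77 FPKM. It was lower in MASCs by 1.62 (SE 0.15, limma adjusted p = 3.2e-05), in ESCs by 1.44 (adjusted p = 0.00076), in iPS cells by 1.70 (adjusted p = 4.2e-05) and in HSCs by 2.31 (adjusted p = 1.3e-06). The ratio of Sesn2 to Sesn1 FPKM had a median of 2.71 in SSCs (range 1.25 to 5.10) and 24.4 in MASCs (19.3 to 30.7). It was 18.4 and 22.9 in ESCs, 7.36 and 7.49 in iPS cells, 0.648 and 0.816 in HSCs and 9.30 in the MEF sample.

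**Figure D3:**
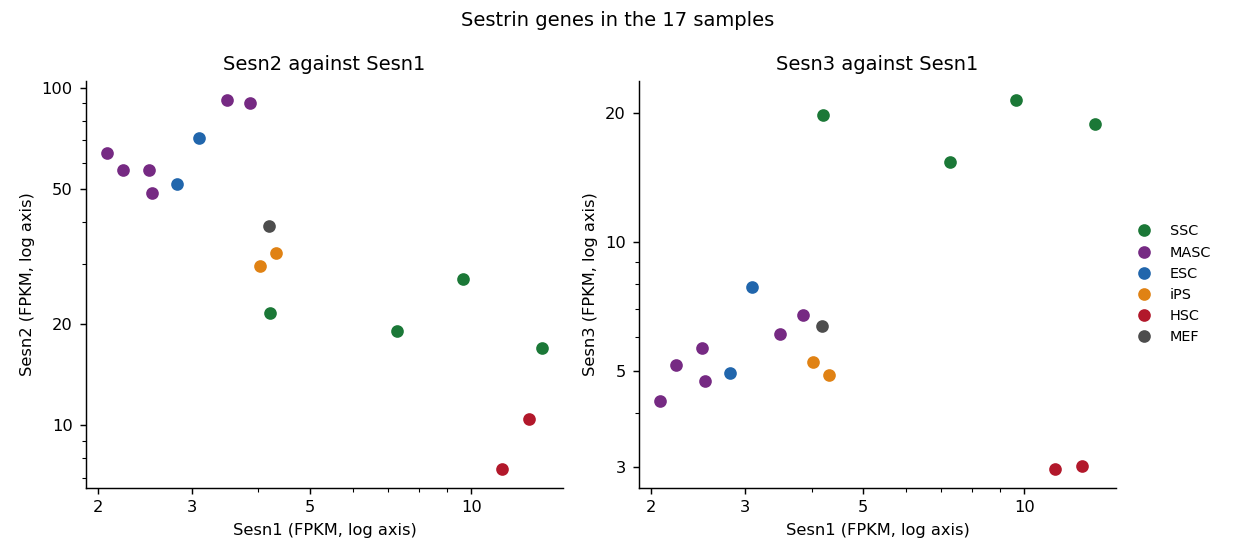
Sesn2 (left) and Sesn3 (right) against Sesn1 in the 17 samples, in FPKM on log axes, with a colour for each cell type. MASC and ESC lines sit at low Sesn1 and high Sesn2, with a Sesn2 to Sesn1 ratio of 18.4 or more, and the SSC lines alone pass 15 FPKM of Sesn3.

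In ESCs, 5 of the 10 genes were higher than in SSCs (Trp53, Trp73, Bbc3, Bax and Sesn2) and Sesn1 was lower, beside 21.4% of all transcripts called, 7.67% as higher and 13.8% as lower. All comparisons with SSCs use the same 4 SSC lines, so their calls are not independent. Quantile normalization turned the share of higher calls among all calls from 37.0% to 45.8% in MASCs and from 35.8% to 46.7% in ESCs. In iPS cells this share went from 36.5% to 48.1% and in HSCs from 38.1% to 50.4%. The shares of all transcripts called higher or lower thus depend on the normalization. The differences were 2.34 for Trp53 (limma adjusted p = 1.2e-05), 2.02 for Bbc3 (0.026), 1.00 for Bax (0.0043), 1.499 for Sesn2 (0.0045) and -1.19 for Sesn1 (0.036). Without the 5 fibroblast-rich libraries, which left 1 ESC line, Bbc3 (1.13), Sesn2 (1.07) and Sesn1 (-0.97) were not called. The Bbc3 and Sesn2 calls were also lost without ESC line 1, at 1.25 and 1.28, and the Bbc3 call without SSC line 1 (1.86) or 4 (1.95). The Sesn1 call was lost without SSC line 1, 3 or 4 or either ESC line (differences from -1.25 to -0.97), under quantile normalization (-0.89, adjusted p = 0.12), summed per gene (-0.91, adjusted p = 0.052) and with a strain block (-1.21, adjusted p = 0.093).

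Between ESCs and MASCs, limma called 0 of the 10 genes and 0.0306% of all transcripts. At an unadjusted p under 0.05 there were 0 of the 10 genes and 954 of all transcripts, and limma with a trend and robust estimation also called 0 of the 10. Without the 5 fibroblast-rich libraries, which left 1 ESC line, 0 of the 10 genes, 122 transcripts as higher and 3 as lower were called. The difference was 0.10 for Trp53 (95% interval -0.22 to 0.42), -0.02 for Bax (-0.42 to 0.37) and 0.07 for Trp73 (-0.34 to 0.49). The intervals were wide for Bbc3 (-0.26, from -1.42 to 0.89) and Mdm4 (0.34, from -0.50 to 1.18), and both intervals include changes of over 2 times.

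In iPS cells 4 of the 10 genes were higher than in SSCs, beside 24.5% of all transcripts called (8.93% higher and 15.6% lower), and 0 were called lower. These were Trp53 (1.65, limma adjusted p = 1.8e-05), Trp73 (0.93), Bbc3 (2.01, adjusted p = 0.011) and Bax (0.80, adjusted p = 0.038). Sesn2 (0.55, 95% interval -0.04 to 1.14) and Sesn1 (-0.81, interval -1.50 to -0.11, adjusted p = 0.090) were not called. The Bax call was lost under quantile normalization (0.33, adjusted p = 0.24), with a strain block (0.94, adjusted p = 0.065), in a fit of the 2 groups alone (adjusted p = 0.11) and without SSC line 2 or 4 or either iPS line (0.65 to 0.88), and the Bbc3 call without either iPS line (1.94 and 2.08). Without SSC line 2, Sesn1 passed as lower. Beside the MEF sample, the cell type that was reprogrammed, both iPS lines were higher in Trp53, Trp73, Mdm4, Mdm2 and Bbc3. They were lower in Ccng1, Bax and Sesn2, in a comparison with 1 MEF sample and no test. The Mdm2 gap was narrow, from 40.4 FPKM in the MEF sample to 42.1 FPKM in iPS line 1. The share of all transcripts with both iPS lines on 1 side of the MEF value was not counted. The iPS mean of Mdm4 was 5.19 times and that of Trp53 1.80 times the MEF value.

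In HSCs, Trp53 (1.15, SE 0.15, limma adjusted p = 0.00011) and Bbc3 (1.97, adjusted p = 0.0087) were higher than in SSCs, and Mdm2, Mdm4 and Sesn2 (-1.15, adjusted p = 0.0057) were lower, beside 33.4% of all transcripts called (12.7% higher and 20.7% lower). The main Trp73 transcript was not above 0.00626 FPKM, and the transcript of the outer start site reached 0.0458 FPKM in HSC culture 2. The Sesn2 call was lost without HSC culture 1 (-0.93, adjusted p = 0.072) and with a strain block (-1.03, adjusted p = 0.078), and the Bbc3 call was lost without HSC culture 2 (1.90, adjusted p = 0.057) and without the 5 fibroblast-rich libraries (1.78, adjusted p = 0.080), a setting with 1 HSC culture in which Bax passed as higher.

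**Figure D4:**
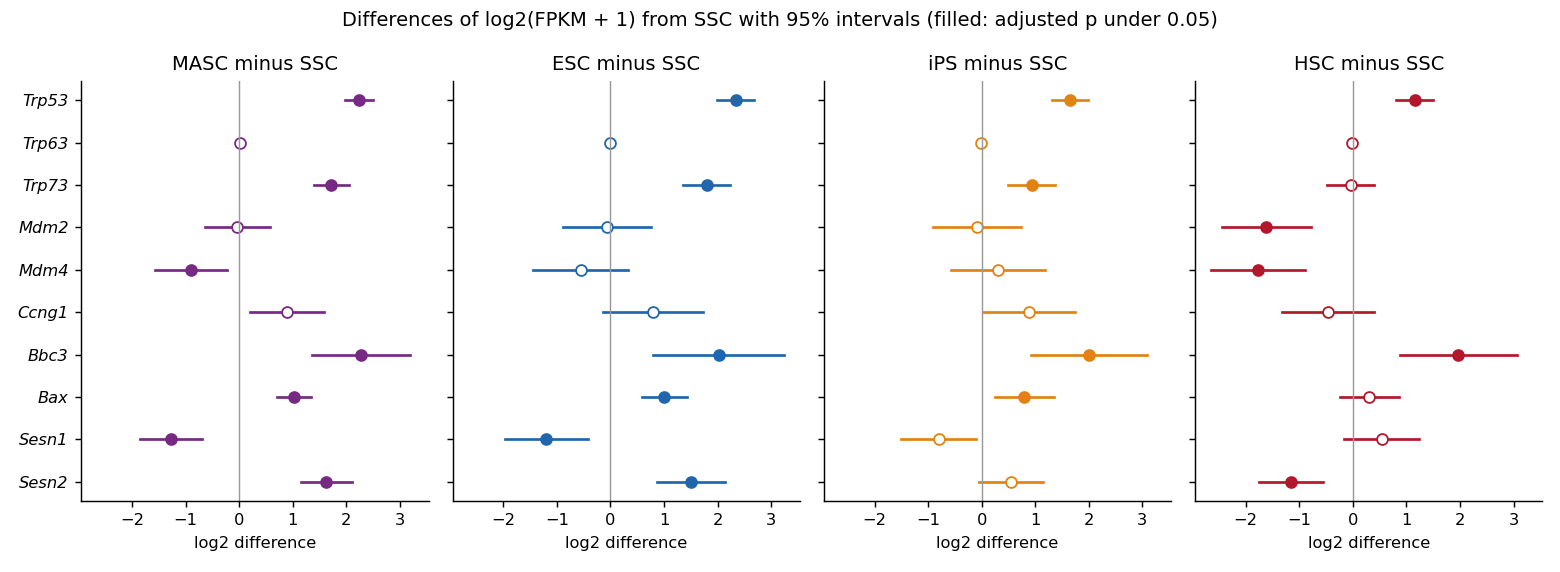
Differences of log2(FPKM + 1) from SSCs for the 10 genes (rows) in MASCs, ESCs, iPS cells and HSCs (panels), on a log2 axis. Points are limma estimates, lines their 95% intervals, and filled points have an adjusted p under 0.05. All panels use the same SSC lines, and Mdm2 is open near 0 in MASCs (-0.04) and filled to the left of 0 in HSCs (-1.61).

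Among the MASC and ESC lines, the Oct4-GFP lines lay apart from the others in Bbc3, Sesn2, Mdm4 and Sesn1. In the main transcripts of Trp53, Trp73, Mdm2, Bax and Ccng1 the ranges overlapped. The longer Trp53 transcript lay apart, at 49.7, 55.3 and 45.2 FPKM in MASC lines 1 and 2 and ESC line 1. It was between 28.9 and 38.0 FPKM in the other MASC and ESC lines. Bbc3 was at 43.4, 50.7 and 37.4 FPKM in MASC lines 1 and 2 and ESC line 1, and between 12.3 and 21.7 FPKM in the other MASC and ESC lines. Sesn2 was at 90.0, 92.3 and 70.9 FPKM against 48.7 to 64.1 FPKM. Mdm4 was at 12.9, 7.11 and 16.4 FPKM against 17.6 to 23.8 FPKM, a small gap. Sesn1 was at 3.86, 3.49 and 3.10 FPKM against 2.09 to 2.81 FPKM. MASC line 1 and ESC line 1 are among the fibroblast-rich libraries, MASC line 2 is not (112 FPKM), and the part of these cells was not tested. This split was seen in the values and was not tested either. The share of all transcripts that split in this way was not counted.

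Other genes around these members were taken from 6 lists, with 86 different genes measured: known p53 targets in 3 lists, p53 regulators, further BCL2 family genes and the partners of the sestrins. Of these, 31 were higher and 16 lower in MASCs than in SSCs. Of the genes with a mean of at least 1 FPKM, 47.4% were called, 19.5% as higher and 27.9% as lower, and the counts of each list stand beside these shares. The lists themselves were not filtered by level. Among the genes counted as higher, Tgfa in the arrest and growth list had a mean of 0.485 FPKM. In the BCL2 family, Bcl2l10 had 0.124 and Hrk 0.761 FPKM. Of the arrest and growth targets, 9 of 15 were higher and 0 lower. Their median was 1.21 on the log2 scale, beside -0.00480 over all transcripts and -0.157 over the expressed ones. Sfn (14-3-3 sigma, which holds cells before mitosis) was at 1.47 to 5.51 FPKM in SSCs and 112 to 274 FPKM in MASCs, higher by 5.33 (limma adjusted p = 4.2e-06). Plk3, a stress-activated kinase, rose by 2.68 and Gadd45a, a growth arrest gene, by 2.14. Cdkn1a, the classic p53 target that codes for the Cdk inhibitor p21, was not called (0.58, 95% interval -0.37 to 1.53). It was between 24.0 and 56.2 FPKM in SSCs and between 36.9 and 162 FPKM in MASCs, with the highest value in the fibroblast-rich MASC line 1 and 240 FPKM in the MEF sample.

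Of the cell death targets, 4 of 13 were higher and 0 lower, with a median of 0.33, beside 19.5% and 27.9% of genes at 1 FPKM or more. The counts were 1 higher and 1 lower without the 5 fibroblast-rich libraries, 1 higher without SSC line 1 and 2 higher without SSC line 3 or MASC line 2. Perp, a membrane protein of desmosomes and apoptosis, rose by 3.86 from at most 4.27 FPKM in SSCs to at least 21.1 FPKM in MASCs, Phlda3, an Akt inhibitor, by 1.33 and the nuclease gene Aen by 0.71. Pmaip1, which codes for NOXA, was spread from 7.56 to 65.1 FPKM in SSCs and was not called (0.21, 95% interval -1.18 to 1.61). In the BCL2 family apart from Bax and Bbc3, 6 of 14 genes were higher and 1 lower, with a median of 0.33. Bak1, the partner effector of Bax, rose by 3.49 (limma adjusted p = 1.6e-05), from at most 3.98 FPKM in SSCs to at least 24.3 FPKM in MASCs. The survival gene Mcl1 rose by 1.83, and the BH3-only gene Bik fell by 2.10.

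Repair and metabolism targets moved both ways, with 3 of 14 higher and 3 lower and a median of -0.04. Beside Sesn3, the lower genes were Ddb2 (-1.47) and Xpc (-1.28), which both find UV damage in DNA. The p53 regulators did so too, with 8 of 24 higher and 8 lower (median -0.05). Cdkn2a, whose locus codes for the Mdm2 inhibitor ARF and for a Cdk inhibitor, was at 94.1, 69.5, 121 and 76.5 FPKM in SSC lines 1 to 4 and between 3.57 and 21.4 FPKM in MASCs. It was lower by 3.32 (SE 0.49, limma adjusted p = 0.00066), and was at 11.9 and 11.6 FPKM in ESCs and 70.8 FPKM in the MEF sample. Ppp1r13b, which codes for the p53 cofactor ASPP1, fell by 2.28 and the p53 phosphatase gene Ppm1d by 1.63. The partners of the sestrins in amino acid sensing had 1 of 9 higher (Seh1l, 1.16) and 5 lower, Wdr59 among them (-1.23), with a median of -0.45.

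**Figure D5:**
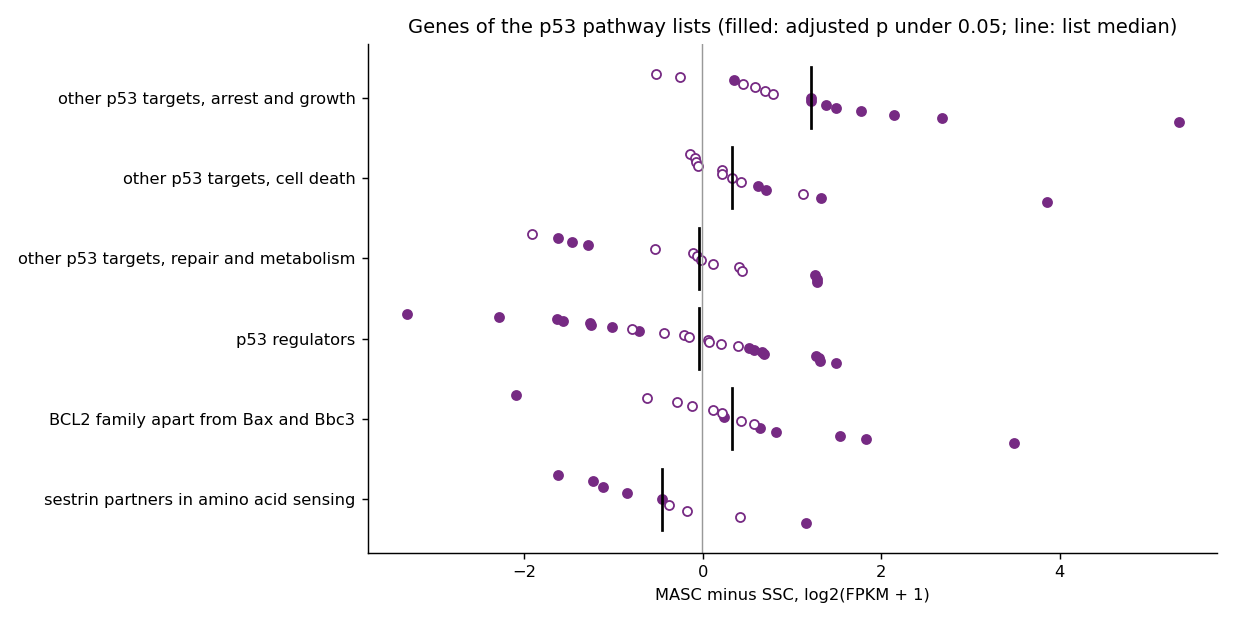
Differences of log2(FPKM + 1) between MASCs and SSCs (horizontal axis) for the genes of the 6 lists (rows). Points are genes, filled where the adjusted p is under 0.05, black lines are list medians and the grey line is the median of all transcripts (-0.00480). The arrest and growth list has the highest median (1.21) and no filled point to the left of 0.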

How the data were processed

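RNA was sequenced from 17 samples, whose cell type, strain and replicate number were taken per the labels. The authors aligned reads to mm9 with TopHat2 2.0.11 (version from the submitters' processing notes), excluded duplicates and reads that mapped to several places, and ran Cufflinks with upper-quartile and GC-normalization. They deposited an FPKM per RefSeq transcript with its bounds, and a coverage signal in reads per base. Library strand was not given in the sources used here. The files hold no counts, so no counting interval was computed here, and a value under 1 FPKM rests on few reads. The Cufflinks bounds belong to single libraries.

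Of 33262 rows per sample, 601 further loci of a transcript were left out, which left 32661. Values were used as log2(FPKM + 1), with no filter, and fitted with limma 3.58.1 (R 4.3.3) without a trend. MASCs, ESCs and SSCs were compared in a fit over their 12 lines, iPS cells and HSCs in a fit over all 17 samples. Lines of 1 cell type served as replicates. No label says that they came from separate animals, so p-values measure the spread between these samples. On simulated data of the MASC and SSC comparison (32661 transcripts), 74 of 100 changes of 2 on the log2 scale and 31 of 100 changes of 1 were recovered, with 5 false calls. All other transcripts were left unchanged there, whereas 10099 were called in the real comparison. The adjustment thus acts differently in both, and these rates and the false calls do not carry over to the real data.

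The genes named were all 10 members, the 3 called genes of each list with the largest difference and 4 further genes (Cdkn1a, Pmaip1, Cdkn2a and Sesn3). The 3 most similar genes for Trp53 and Ccng1, the cell type markers and the called list genes with a mean under 1 FPKM were named too. Members and lists were chosen with earlier results of these data known. Pmaip1, Bid and Sesn3 stand in 2 lists each. Sequences were read from NCBIM37 (mm9), with exons from its GENCODE annotation. Alternatives were another pseudocount, a filter on low values, quantile normalization, a trend, sums per gene, other sample sets, blocks for replicate number and strain, and each sample left out. Leaving out the 5 libraries over 300 FPKM of fibroblast markers was added after seeing the data. No pair of samples of 1 cell type held identical values over more than a few transcripts.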

Additional observations from a re-analysis of the deposited data

Results flagged for a closer look

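The difference of Mdm2 between MASCs and SSCs pointed in opposite directions within strains. Both MASC lines of strain Oct4-GFP were above the mean of their 2 SSC lines, with a mean difference of 0.57 on the log2 scale. Both MASC lines of 129mix were below the only SSC line of that strain, with a mean difference of -0.34. The difference between the strains was not tested. MASC line 1, with the highest Mdm2 value (94.7 FPKM), is one of the fibroblast-rich libraries (fibroblast marker sum 927 FPKM), while the MEF sample had 40.4 FPKM of Mdm2. In 20 tests for a sample far from its group (10 genes in SSCs and in MASCs), none stood out by Dixon's criterion.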

How the results depend on the processing

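Of the values recomputed under other settings, 482 counts stayed within 1.5 times of those reported and 70 did not, and among the values of single genes 406 kept their direction and their side of the threshold, 47 lost the call, 10 gained it and 5 reversed. In MASCs against SSCs, Trp53, Trp73, Bbc3, Bax and Sesn2 were called in all 19 alternatives, Sesn1 in 17 (not with the replicate block, adjusted p = 0.063, or without the fibroblast-rich libraries, 0.051) and Mdm4 in 10. The reversed values were all of Mdm2 in MASCs against SSCs, which was not called in any: 0.31 summed per gene, 0.21 with the replicate block, 0.21 with the strain block, and -0.19 to 0.14 with each line left out, positive without SSC line 4 (0.09) and MASC line 6. Except where a value shows it, the cause of a change was not tested.

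The labels give the cell types the same replicate numbers, but these do not pair the samples: the correlation of the deviations of same-numbered SSC and MASC lines ran from -0.23 to 0.18 (4 pairs), against -0.32 to 0.34 for other numbers (20 pairs). With the replicate block, fewer lines have a partner and fewer degrees of freedom remain. It left 2271 transcripts higher and 3674 lower in MASCs, with 0 of the 10 genes lower, and 1272 higher and 2105 lower in ESCs, with 3 of the 10 genes higher and 0 lower. It called 2 transcripts higher and 0 lower between ESCs and MASCs, 1 of the 10 genes higher in HSCs, 1 cell death target higher and 3 sestrin partners lower. The block lost the calls of Mdm4 (-1.07, adjusted p = 0.081) and Sesn1 in MASCs, of Bbc3 (1.73, 0.20), Sesn2 (1.39, 0.082) and Sesn1 (-1.29, 0.13) in ESCs, and of Bbc3 in iPS cells (1.72, 0.086) and HSCs (1.68, 0.072), and no other of the 10 genes.

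Quantile normalization left 1 of the 10 genes lower in MASCs and 0 lower in ESCs, and called 5 repair and metabolism targets higher, 5 regulators higher and 3 sestrin partners lower. It moved the median difference of expressed transcripts up by 0.18 in MASCs, 0.21 in ESCs, 0.21 in iPS cells and 0.22 in HSCs. Without the 5 fibroblast-rich libraries, a choice made after seeing the data, 0 of the 10 genes were lower in MASCs, 3 higher and 0 lower in ESCs, 122 transcripts were higher and 3 lower between ESCs and MASCs, and 1 cell death target was higher and 1 lower. Summing per gene and the strain block each left 0 of the 10 genes lower in ESCs. The strain block called 0 transcripts lower between ESCs and MASCs and 2 BCL2 family genes lower, and the fit over all 17 samples called 0 transcripts lower between ESCs and MASCs. In that comparison a pseudocount of 0.1 gave 14 higher and 3 lower, and the filter on low values 5 higher. The filter also called 1 arrest and growth target lower. A fit of 2 groups only, with fewer degrees of freedom, gave 2629 transcripts lower in iPS cells and 2466 higher and 3575 lower in HSCs.

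With each sample left out in turn, the 10 genes had 1 to 2 lower in MASCs, 3 to 5 higher and 0 to 1 lower in ESCs, 1 to 4 higher and 0 to 1 lower in iPS cells and 0 to 3 lower in HSCs. The lowest of these came without ESC line 1 (3 higher), iPS line 1 (1 higher) and HSC culture 1 (0 lower). Over all transcripts the counts ran from 2437 to 4869 lower in ESCs, from 1809 to 2991 higher and 2602 to 5435 lower in iPS cells, and from 7 to 104 higher and 1 to 4 lower between ESCs and MASCs, the 104 being without ESC line 1. A lone sample left in a group was taken to vary like the other groups. The lists had 0 to 1 arrest and growth targets lower, 1 to 5 cell death targets higher and 1 to 2 BCL2 family genes lower. The depth, 1.26 to 3.23 reads per base at 1 FPKM, limits what can be read of Trp63 and of Trp73 in SSCs, HSCs and MEFs.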
